A study of Mus musculus with 19 samples.

Results

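The actin cytoskeleton genes were followed after tamoxifen, which binds the oestrogen receptor, in FDCPmix, a line of mouse blood progenitors that needs interleukin-3 to grow. They were found by gene symbol: actins, alpha-actinins, actin-related proteins, Arp2/3 and capping protein subunits, cofilins, tropomyosins, myosins, thymosins and type 1 coronins, with Lcp1, Vasp and S100a6 added by name. The arrays held 58 such genes, measured by 83 probes, of 9834 genes with a symbol and 16148 features in all. They divided into 35 non-muscle forms, 17 forms best known from muscle and 6 that fit neither class (Capza3, Myl10, Actr5, Actr8, Tmsb15l and Myo3b). The symbol rule did not take in Actb, and Actn1, Cfl2, Tmsb10 and Acta1 were not among the members found.

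Each of the 19 arrays compared the RNA of a treated culture, called its own RNA here, with a reference RNA in the other dye. The own RNA came from treated cells with no stated time (4 arrays, reference from non-treated cells), or from cells at 3 h, 7 h and 12 h (4 arrays each) and 23 h (3 arrays) after tamoxifen, with treated cells at 0 h as reference. Cells of all 4 times and their 0 h reference had therefore all been treated, and the 4 times share that reference. For the cells with no stated time the sample labels say that they were treated and do not name the agent. The own RNA was in Cy5 on 2 and in Cy3 on 2 arrays of each group of 4, and in Cy5 on 1 and in Cy3 on 2 arrays at 23 h, where replicate 2 was not analysed here. The sample titles add ES cell line with no explanation, and no label says that replicates came from separate cultures, so p-values measure the spread between these arrays only. A test of a ratio against 0 leaves out the spread of the reference RNA.

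Actin exists as single molecules and as filaments. Thymosins hold single molecules in reserve, the Arp2/3 complex starts branches, Vasp lengthens filaments, capping protein stops them and cofilin takes them apart. Alpha-actinins and the plastin Lcp1 bundle filaments, tropomyosins coat them and myosins pull on them. Muscle forms of actin, alpha-actinin, tropomyosin and myosin build the contractile apparatus of striated and smooth muscle, while blood cells use the non-muscle forms to move, spread and engulf.

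All values below are log2 ratios of the own RNA over its reference, after each array was centred on its median, so that a negative value means lower in the own RNA. The log base and the direction are assumed, as the sources used here do not state them. Over spots, the SD was 0.619 to 0.642 on the treated arrays and 0.235 to 0.360 on the time-course arrays. A pair of arrays was in doubt. A single extreme value is repeated on 8 to 29 spots of every array, above 0 where Cy5 marked the own RNA and below 0 where Cy3 did, except on 7 h replicate 4, where it is 16.291 with the own RNA labelled Cy3. Replicate 3 at 23 h had a deposited median of 0.233, and its values ran against its group, which is a trait of the outcome itself. Over the 58 members its Pearson correlation was -0.43 with replicate 1 and -0.50 with replicate 4 at 23 h, while those 2 arrays correlated at 0.34. Across all features the same 3 correlations were -0.15, -0.078 and 0.022. The first was between opposite dyes, where arrays not in doubt were nearly as low. Treated replicates 2 and 3 correlated at -0.14 and 12 h replicates 2 and 3 at -0.13. The second was between arrays of the same dye, where pairs within a group ran from 0.055 to 0.32 without the arrays in doubt. Genes are not independent replicates, and the arrays share a reference RNA, so these correlations only describe the arrays. Results are given with both arrays and without both.

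With all arrays, no actin cytoskeleton gene passed the test in any comparison. The test was limma's moderated test with Benjamini-Hochberg adjustment over all features, and a gene was called at an adjusted p under 0.05. In treated against non-treated cells 0 of 57 members were called, Capza3 having too few values, and 0% of the 15915 features tested were called. Of 58 members, 0 were called at 3 h, at 7 h and at 23 h, where 0% of the features were called, and 0 at 12 h, where 0.0186% were. No member was called at 23 h against 3 h, in the test for any difference among the 4 times or in the mean of the 4 times against 0 h, each with 0% of the features called. The lowest adjusted p of a member was 0.410, for S100a6 at 12 h. The treated comparison was the less precise: the median SE over members was 0.125 there, with a highest of 0.582, against medians of 0.0882 at each time up to 12 h and 0.103 at 23 h, and a count of 0 does not show that members did not differ.

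Counts at an unadjusted p under 0.05 lay near those of all features in most comparisons, and above them at 3 h and in the mean of the 4 times. They were 4 of 57 members in treated cells (6.21% of all features), 12 of 58 at 3 h (10.8%), 4 at 7 h (7.04%), 5 at 12 h (6.25%) and 1 at 23 h (3.35%). In the mean of the 4 times 7 of 58 were lower (3.99% of all features) and 1 was higher (3.27%). Lcp1, Vasp and S100a6 were in the list by name, with earlier results of these data known. At 3 h, 8 of the 12 were lower in the own RNA, against 5.05% of all features, and 4 were higher, against 5.72%. The 3 h arrays also had 13 of 58 members below 0 on all 4 arrays, against 10.5% of the features. These 13 divided into 7 of 35 non-muscle genes, 4 of 17 muscle genes and the 2 others, so they did not separate the classes.

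**Figure D1:**
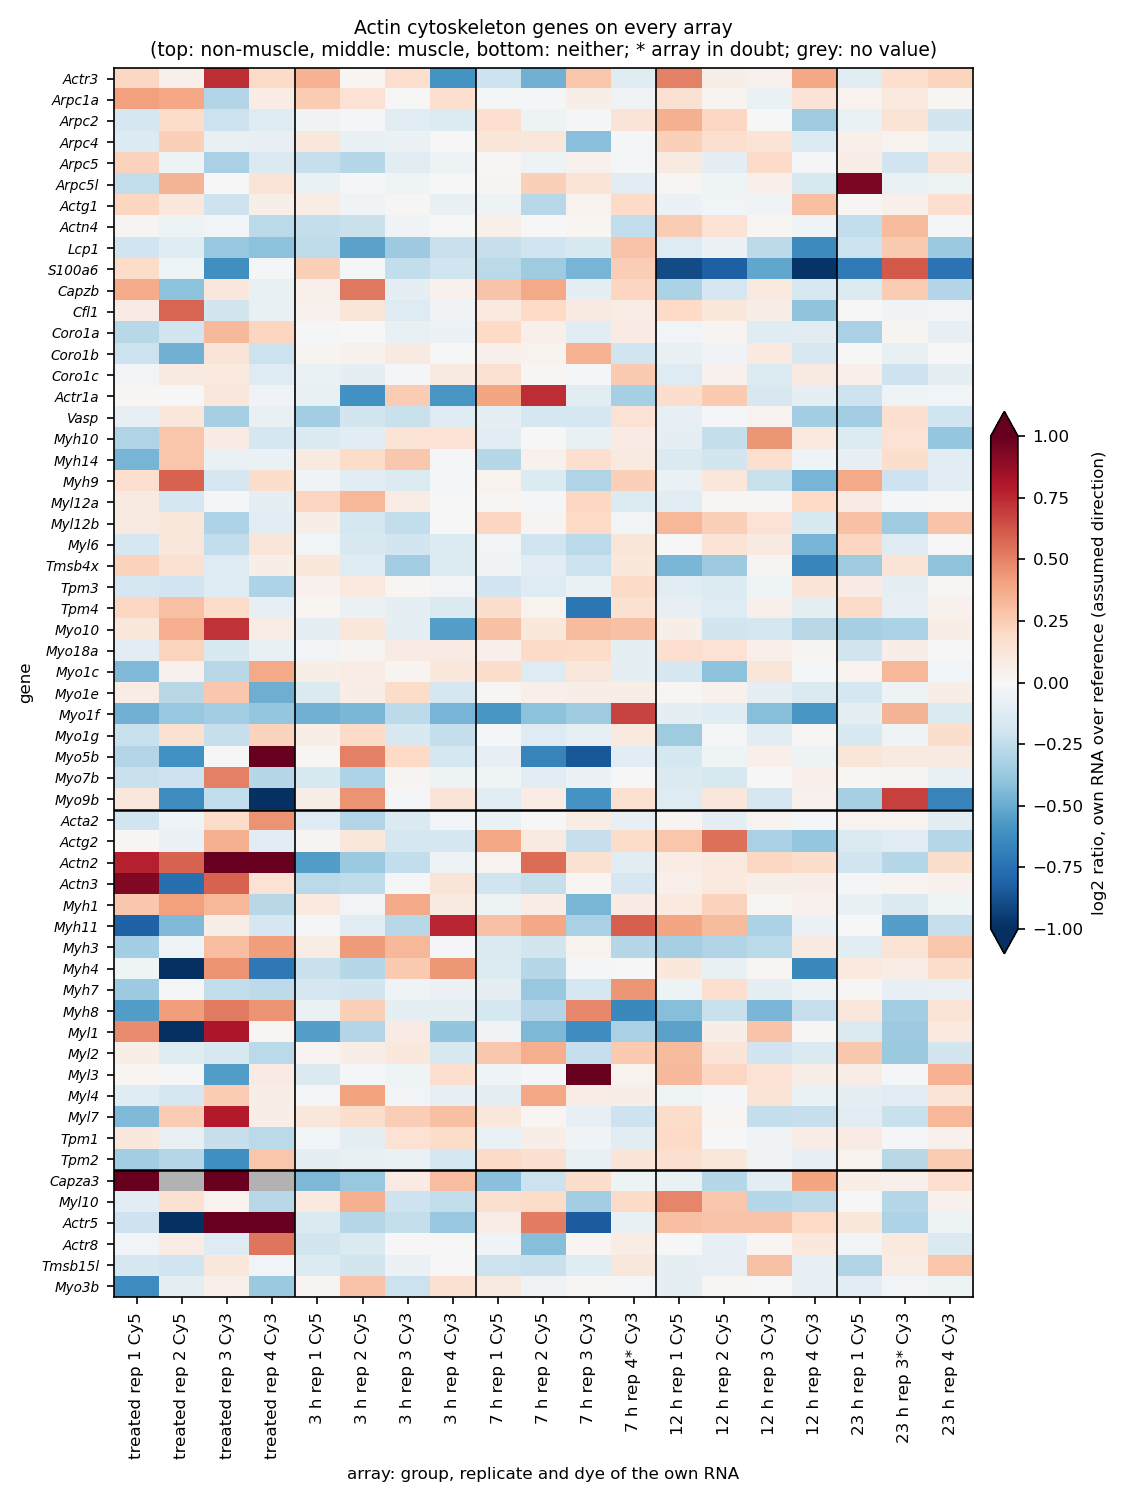
Log2 ratio of own RNA over reference for the 58 genes (rows, non-muscle above muscle above neither) on the 19 arrays (columns, by group, replicate and dye of the own RNA), in a colour scale cut at -1 and 1, with grey for no value. S100a6 is darkest at 12 h and at 23 h, Myo1f and Lcp1 are below 0 on every array except the pair marked in doubt, and Actn2 is above 0 on all 4 treated arrays.

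With all arrays, non-muscle and muscle genes did not differ in any group beyond the spread between arrays. The median of the 35 non-muscle genes minus the median of the 17 muscle genes was -0.10 ± 0.247 in treated cells (SD, n = 4), 0.029 ± 0.0526 at 3 h (n = 4), 0.023 ± 0.0582 at 7 h (n = 4), -0.070 ± 0.0947 at 12 h (n = 4) and -0.014 ± 0.145 at 23 h (n = 3). At 23 h replicate 3, the array in doubt, stood at 0.15, while replicates 1 and 4 stood at -0.068 and -0.12. Those remaining 23 h arrays are too few to judge a spread. Without replicate 4 the 7 h arrays stood at 0.0675, -0.033 and -0.021. The class medians themselves were -0.035 ± 0.0898 for non-muscle and 0.067 ± 0.169 for muscle genes in treated cells. At 3 h they were -0.020 ± 0.0311 and -0.049 ± 0.0236, at 7 h 0.0058 ± 0.0591 and -0.017 ± 0.0342, at 12 h -0.044 ± 0.0545 and 0.026 ± 0.0789, and at 23 h -0.017 ± 0.0521 and -0.0032 ± 0.104, for non-muscle and muscle genes in turn. The median over all features of the fitted values lay between -0.0018 and 0.0090 in these 5 comparisons. A ratio between 2 RNAs gives no level, so these data do not say whether a muscle form was expressed in the cells at all.

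**Figure D2:**
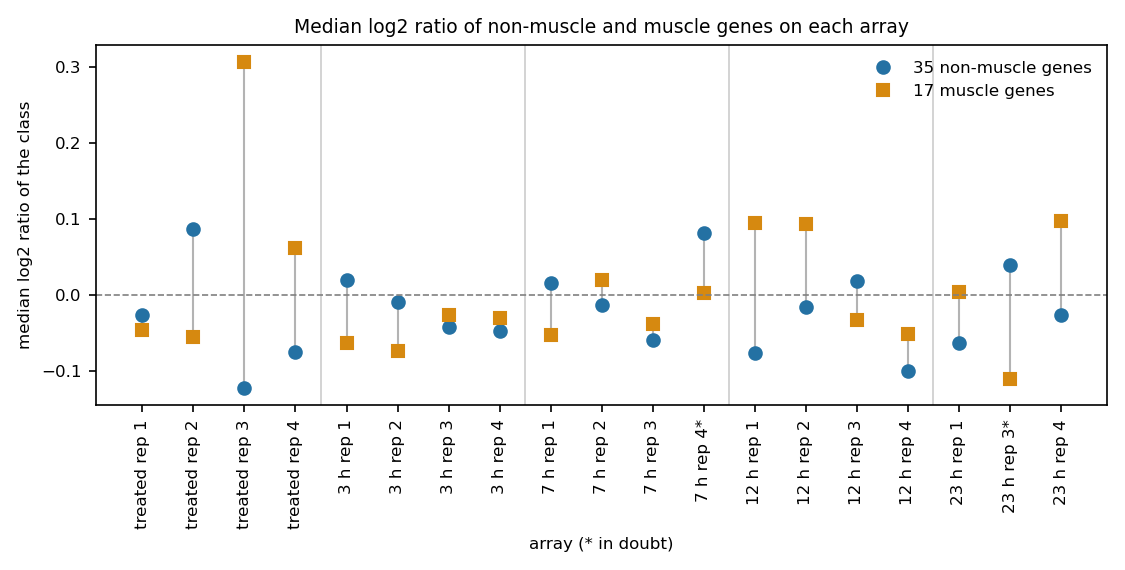
Median log2 ratio of the 35 non-muscle genes (circles) and the 17 muscle genes (squares) on each array, joined by a line, with an asterisk on the 2 arrays in doubt. The order of the classes changes between arrays of every group, at 23 h only through the array in doubt. The widest gap, -0.43, is on treated replicate 3.

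When both arrays in doubt were left out, the mean of the 4 times against 0 h called 5 of 58 members, all lower. It called 2.21% of 15983 features. None of the 17 muscle genes was called, which at that share does not set the classes apart. The 5 genes are S100a6, Myo1f, Lcp1, Vasp and Tmsb4x, all non-muscle and each measured by 1 probe, except Lcp1 with 2. They lay below 0 on 11 to 13 of the 13 time-course arrays outside the pair in doubt. This was not particular to them: Myh7, a muscle gene, and Tmsb15l, of neither class, were also below 0 on 11 of the 13. With both arrays kept the same 5 contrasts had adjusted p between 0.597 and 0.655. Lcp1, Vasp and S100a6 had been put in the list by name with earlier results of these data known, so their share says nothing about the list. Leaving out 23 h replicate 3 for values that ran against its group makes the remaining p-values too small.

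S100a6 encodes a small calcium-binding protein of the S100 family that binds cytoskeletal partners and is abundant in many dividing and migrating cells. Its log2 ratios were 0.18, -0.041, -0.61 and -0.015 in the treated cells, and 0.24, -0.008, -0.24 and -0.20 at 3 h. They were -0.27, -0.35, -0.46 and 0.25 at 7 h, -0.90, -0.82, -0.52 and -0.98 at 12 h, and -0.71, 0.61 and -0.74 at 23 h. All 4 arrays were below 0 at 12 h, and at 23 h replicates 1 and 4 were low while replicate 3, the array in doubt, was high. The fitted value at 12 h was -0.80 (SE 0.19, n = 4, adjusted p = 0.410 by limma with all arrays). Without both arrays in doubt the 12 h value was again -0.80 (SE 0.084, adjusted p = 0.00343, 0.249% of features called), since no 12 h array was removed and only the pooled spread shrank. At 23 h it was -0.29 (SE 0.22, n = 3, adjusted p = 0.9997) with all arrays and -0.72 (SE 0.12, n = 2, adjusted p = 0.0328, 0.368% of features called) without them. The 3 h value was -0.054 and the 23 h minus 3 h contrast was -0.24 with all arrays (adjusted p = 0.910) and -0.67 without both (adjusted p = 0.242), so a difference between the times did not pass either way. The mean of the 4 times was -0.34 (SE 0.097, adjusted p = 0.597) with all arrays and -0.49 (SE 0.049, adjusted p = 0.000302) without both.

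Myo1f encodes a single-headed class I myosin of leukocytes that links actin to the membrane during adhesion and migration. It stood at -0.48, -0.38, -0.35 and -0.39 in the treated cells, and -0.48, -0.46, -0.26 and -0.46 at 3 h. These 8 values lay between -0.48 and -0.26, with no array near 0. Later values were -0.58, -0.41, -0.35 and 0.68 at 7 h, -0.093, -0.12, -0.42 and -0.58 at 12 h, and -0.087, 0.34 and -0.14 at 23 h. The 2 arrays in doubt were the only time-course arrays above 0, and Myo1f was below 0 on the other 13. The treated value was -0.40 ± 0.0583 (SD, n = 4, adjusted p = 0.792) and the 3 h value -0.42 ± 0.103 (SD, n = 4, adjusted p = 0.441). In the mean of the 4 times Myo1f stood at -0.22 (SE 0.084, adjusted p = 0.655) with all arrays and at -0.32 (SE 0.046, adjusted p = 0.00370) without both in doubt. Without 7 h replicate 4 alone the adjusted p was 0.0394.

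Lcp1 encodes L-plastin, the actin-bundling plastin of leukocytes. It was measured by 2 probes that agreed, with means of -0.33 and -0.35 at 3 h. Averaged over the probes it stood at -0.20, -0.12, -0.38 and -0.41 in the treated cells, and -0.25, -0.53, -0.37 and -0.23 at 3 h. At later times it stood at -0.23, -0.20, -0.15 and 0.28 at 7 h, -0.13, -0.059, -0.26 and -0.63 at 12 h, and -0.21, 0.26 and -0.37 at 23 h. Lcp1 was below 0 on all 4 treated arrays and on 13 of 15 time-course arrays, again every one except the pair in doubt. The treated value was -0.28 ± 0.141 (SD, n = 4, adjusted p = 0.793) and the 3 h value -0.34 ± 0.139 (SD, n = 4, adjusted p = 0.425). Its mean over the 4 times was -0.20 (SE 0.061, adjusted p = 0.641) with all arrays and -0.28 (SE 0.049, adjusted p = 0.0120) without both. Lcp1 and Myo1f were the 2 members below 0 on all 13 other time-course arrays, which held for 0.554% of 15695 features, and 0 members were above 0 on all of them, against 0.223%. The 4 treated arrays had non-treated cells as reference, not the 0 h RNA.

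Tmsb4x encodes thymosin beta-4, which binds single actin molecules. Its values were 0.23, 0.16, -0.13 and 0.059 in the treated cells, and 0.11, -0.12, -0.35 and -0.14 at 3 h. They were -0.039, -0.12, -0.22 and 0.11 at 7 h, -0.46, -0.36, 0.028 and -0.66 at 12 h, and -0.36, 0.14 and -0.41 at 23 h. At 12 h replicates 1, 2 and 4 were low and replicate 3 was near 0. The 12 h value was -0.36 ± 0.288 (SD, n = 4, adjusted p = 0.657), and the mean of the 4 times was -0.19 (SE 0.059, adjusted p = 0.641) with all arrays and -0.25 (SE 0.056, adjusted p = 0.0460) without both. In treated cells it stood at 0.080 ± 0.156 (SD, n = 4), with arrays on both sides of 0.

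Vasp encodes a protein at filament tips that speeds elongation. Its values were -0.085, 0.12, -0.33 and -0.071 in the treated cells, and -0.35, -0.19, -0.23 and -0.13 at 3 h. They were -0.10, -0.18, -0.18 and 0.14 at 7 h, -0.08, -0.01, 0.033 and -0.34 at 12 h, and -0.35, 0.16 and -0.20 at 23 h. All 3 h arrays were below 0, and 12 of the 13 other time-course arrays in all. The 3 h value was -0.22 ± 0.0944 (SD, n = 4, adjusted p = 0.433), and the mean of the 4 times was -0.14 (SE 0.044, adjusted p = 0.641) with all arrays and -0.19 (SE 0.038, adjusted p = 0.0310) without both.

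**Figure D3:**
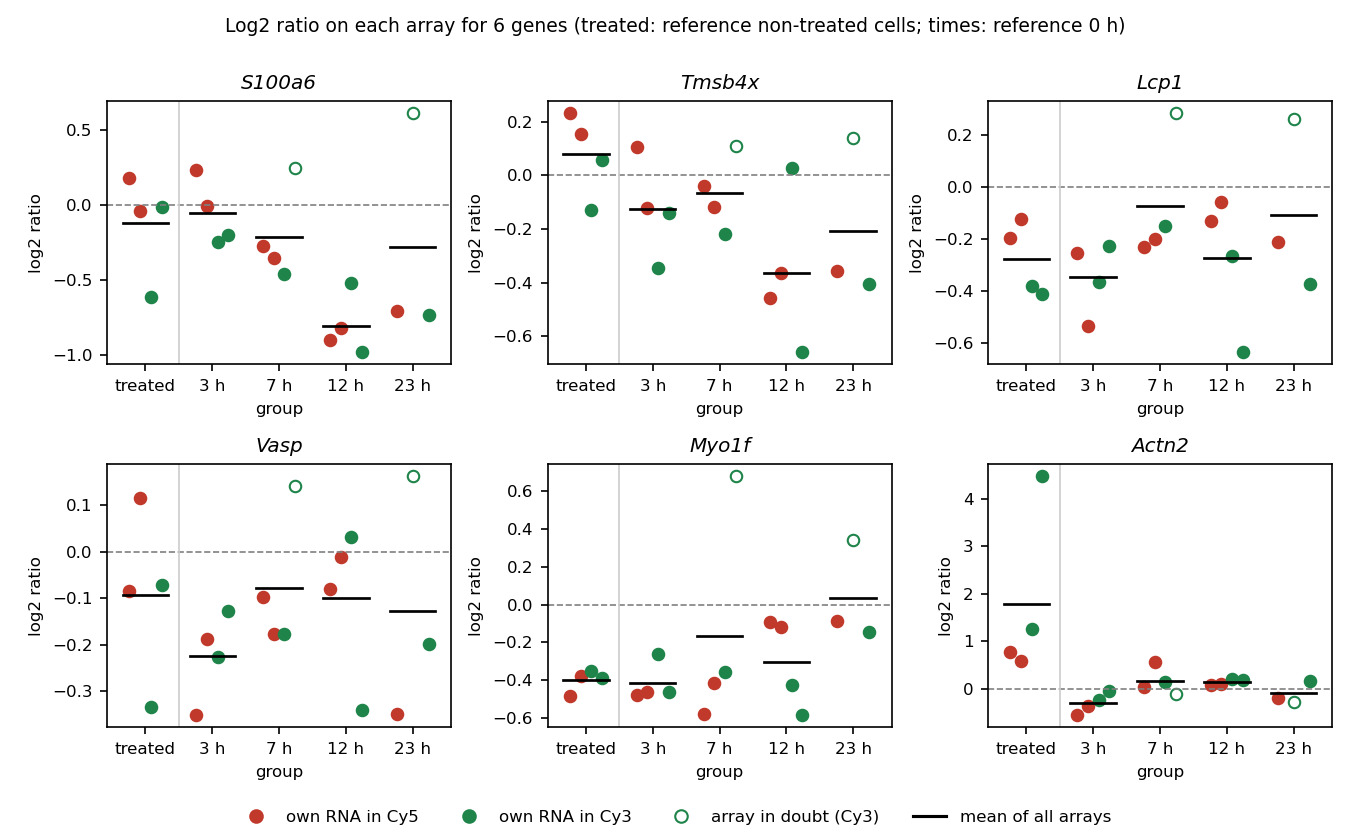
Log2 ratio on each array for S100a6, Tmsb4x, Lcp1, Vasp, Myo1f and Actn2, by group, with red points for own RNA in Cy5, green for own RNA in Cy3, open points for the 2 arrays in doubt and a bar for the mean of all arrays. In the first 5 panels both open points lie above 0 while the filled 7 h and 23 h points lie below it, and Actn2 has 1 treated array at 4.48.

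Markers of macrophages and neutrophils also averaged below 0. Of 8 listed markers of macrophages and neutrophils 4 were measured (Lyz2, Mpo, Elane and Ltf), and all 4 were below 0 in each of the 5 comparisons, with medians of -0.30 in treated cells, -0.14 at 3 h, -0.19 at 7 h, -0.42 at 12 h and -0.35 at 23 h. None passed the test with all arrays. The median of the 4 per array ran from -0.43 to -0.15 in treated cells, from -0.19 to -0.086 at 3 h and from -0.60 to -0.33 at 12 h. At 7 h it ran from -0.43 to -0.36 with 7 h replicate 4 at 0.39, and at 23 h it was -0.92 on replicate 1, 1.003 on replicate 3 and -1.08 on replicate 4. The 2 arrays in doubt, on which S100a6, Lcp1 and Myo1f were all above 0, were also the 2 arrays with a marker median above 0. Replicate 3 at 23 h was put in doubt because its values ran against its group, so its part of this match follows from that choice. The doubt about 7 h replicate 4 concerns a sign, and an array with turned signs would set all low genes high together. Whether its signs are turned was not tested, so its part is no separate match either. S100a6 was above 0 on 3 h replicate 1 (0.24) and treated replicate 1 (0.18) too, where the marker medians were -0.086 and -0.27. The part of these markers in the results was not tested, and in RNA of whole cultures fewer cells of a type and less RNA per cell cannot be told apart. Of the skeletal muscle markers 9 of 10 were measured in the time course, with medians of -0.078 at 3 h, 0.038 at 7 h, -0.012 at 12 h and 0.027 at 23 h, and of the haematopoietic progenitor markers 6 of 8, with medians between -0.014 and 0.0077 in all 5 comparisons. Among the progenitor markers Csf2rb stood at -0.23, -0.33, -0.63 and -0.30 in treated cells, where each of the others measured took both signs. Csf2rb stood at -0.17, -0.28, -0.18 and -0.34 at 3 h, and -0.20, -0.37, -0.49 and 0.83 at 7 h. It stood at -0.10, 0.017, -0.36 and -0.16 at 12 h, and -0.097, -0.019 and -0.33 at 23 h. The medians over the 5 comparisons ran from -0.12 to 0.026 for smooth muscle and fibroblast markers, from -0.075 to 0.13 for megakaryocyte markers, from -0.14 to 0.10 for erythroid markers and from -0.19 to 0.10 for pluripotency markers.

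The direction of these genes rests on the sign given to the arrays with the own RNA in Cy3. With the sign of those arrays turned, no member was called in any comparison, where 0% to 0.0186% of features were (0.0125% in the mean of the 4 times), and that mean was -0.076 for S100a6, -0.029 for Lcp1, -0.090 for Myo1f, -0.0092 for Tmsb4x and -0.051 for Vasp. With the sign turned and both arrays in doubt left out it lay above 0 for S100a6 (0.058), Lcp1 (0.052), Tmsb4x (0.049) and Myo1f (0.018). In the deposited signs both orientations pointed the same way for several members. S100a6 at 12 h averaged -0.86 over the 2 arrays with the own RNA in Cy5 and -0.75 over the 2 with it in Cy3. At 3 h Myo1f averaged -0.47 and -0.36, and Lcp1 -0.39 and -0.30. Other members took opposite sides by dye: Actg2, the smooth muscle gamma-actin, stood at 0.28, 0.55, -0.33 and -0.39 at 12 h, high on both Cy5 arrays and low on both Cy3 arrays. At 12 h 12 of 58 members divided in this way, against 23.8% of features.

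**Figure D4:**
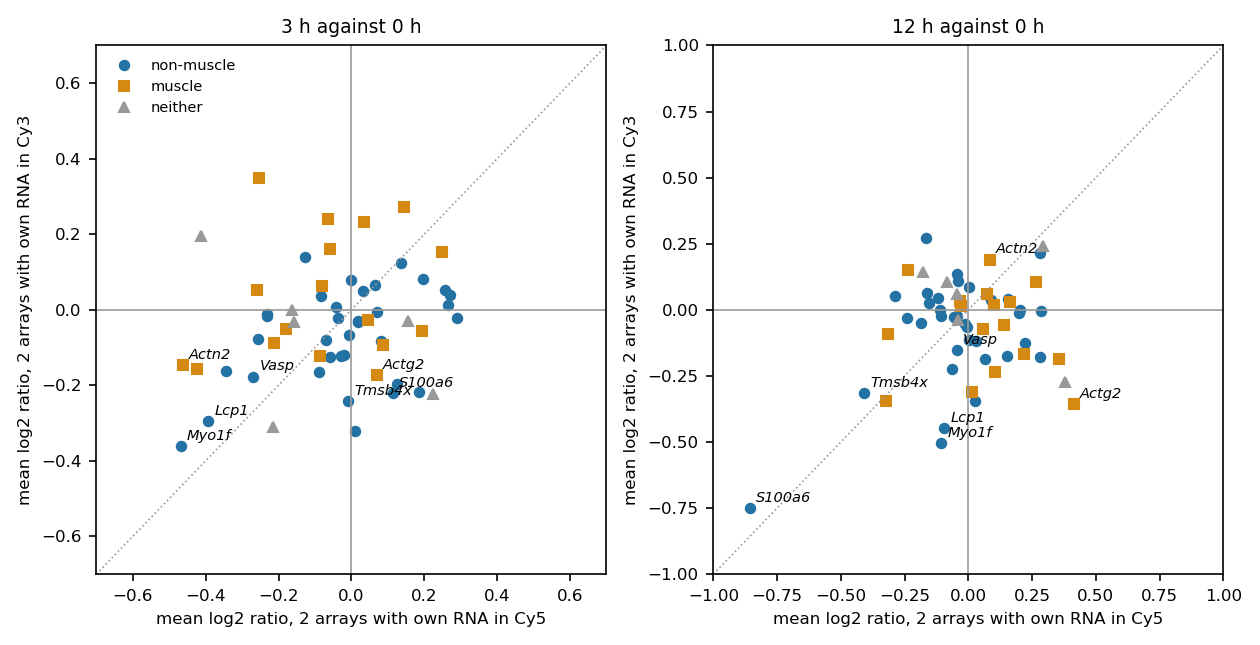
Mean log2 ratio of each gene over the 2 arrays with the own RNA in Cy5 (x axis) and the 2 with it in Cy3 (y axis) at 3 h (left) and 12 h (right), by class. Myo1f and Lcp1 at 3 h and S100a6 at 12 h lie near the dotted line of equal values, and Actg2 at 12 h lies at the lower right, high in 1 orientation and low in the other.

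Proximal promoters were compared because the 5 genes lay below 0 together. RefSeq promoter sequences (GRCm38.p6) were found for 48 of the 58 members, 60 promoters in all. The 150 bases before the start are shown for the 5 genes, with both promoters of Lcp1, and for Actg1, a cytoplasmic actin whose promoter holds a CArG box. Capitals mark GGGCGG, the GC box, and the CArG box, the site of serum response factor.
S100a6, chr3:90612744-90612893, + strand: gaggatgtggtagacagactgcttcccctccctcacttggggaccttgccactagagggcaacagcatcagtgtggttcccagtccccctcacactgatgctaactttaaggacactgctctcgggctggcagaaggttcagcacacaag
Tmsb4x, chrX:167209219-167209368, - strand: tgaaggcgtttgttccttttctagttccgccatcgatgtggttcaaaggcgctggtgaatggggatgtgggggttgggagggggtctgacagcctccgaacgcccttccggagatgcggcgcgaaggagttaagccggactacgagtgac
Lcp1 (promoter 1), chr14:75130973-75131122, + strand: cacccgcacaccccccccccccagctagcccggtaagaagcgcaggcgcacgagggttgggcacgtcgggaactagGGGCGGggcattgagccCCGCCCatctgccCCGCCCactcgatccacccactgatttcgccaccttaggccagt
Lcp1 (promoter 2), chr14:75136275-75136424, + strand: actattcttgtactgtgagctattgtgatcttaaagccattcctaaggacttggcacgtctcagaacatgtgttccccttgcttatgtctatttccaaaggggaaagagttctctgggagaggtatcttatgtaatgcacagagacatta
Vasp, chr7:19271855-19272004, - strand: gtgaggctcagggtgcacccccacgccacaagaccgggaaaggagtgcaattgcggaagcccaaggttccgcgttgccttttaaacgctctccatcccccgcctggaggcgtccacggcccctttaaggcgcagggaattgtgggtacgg
Myo1f, chr17:33555557-33555706, + strand: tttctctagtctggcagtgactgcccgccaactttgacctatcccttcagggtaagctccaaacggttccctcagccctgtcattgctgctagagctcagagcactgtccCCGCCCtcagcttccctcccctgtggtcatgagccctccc
Actg1, chr11:120348496-120348645, - strand: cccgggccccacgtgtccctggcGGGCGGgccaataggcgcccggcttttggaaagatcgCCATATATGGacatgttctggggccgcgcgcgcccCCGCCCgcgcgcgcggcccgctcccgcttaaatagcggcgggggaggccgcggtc
Within 250 bases before the start, on either strand, a CArG box was present in 7 of the 60 member promoters (Actg1, Arpc4, Myh4, Myl3, Myl6, Myl7 and Myo1e) and in 1.47% of 32851 promoters of the same length. It was in none of the 5 genes. GGGCGG was in 28 of 60 member promoters, against 32.7% of all promoters, and was found in Lcp1, Myo1f and Tmsb4x and not in S100a6 or Vasp. TATAAA was in 8 of 60, against 12.4%: Myh1, Myh3, Myh4, Myh8, Myl1 and Myl2 of the muscle genes and Myh9 and Myo10 of the others. GAGGAA, the core of the site of the myeloid factor PU.1, was in 14 of 60, against 23.3%, and in none of the 5 genes. A CArG box can hold TATAAA within it, and a promoter with several motifs counts under each. A match is a run of letters and no evidence of binding.

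Among the actins, Actg1, the cytoplasmic gamma-actin, stood at 0.21, 0.10, -0.21 and 0.06 in the treated cells, and 0.077, -0.039, 0.0092 and -0.074 at 3 h. It stood at -0.053, -0.28, 0.033 and 0.19 at 7 h, -0.058, -0.029, -0.034 and 0.30 at 12 h, and 0.013, 0.047 and 0.17 at 23 h. Its 4 probes did not agree: their 12 h means were 0.12, -0.27, 0.33 and 0.0015. Acta2, the smooth muscle alpha-actin, stood at -0.20, -0.044, 0.18 and 0.45 in the treated cells, and -0.13, -0.29, -0.15 and -0.03 at 3 h, its probe average below 0 on all 4 arrays at 3 h although each of its 2 probes was above 0 on 1 of them, and its 3 h value was -0.15 ± 0.108 (SD, n = 4, adjusted p = 0.425). Its later values were -0.07, 0, 0.077 and -0.08 at 7 h, 0.03, -0.091, 0.038 and -0.012 at 12 h, and 0.036, 0.032 and -0.11 at 23 h, on both sides of 0. Actg2 stood at 0.023, -0.055, 0.35 and -0.11 in the treated cells, 0.029, 0.11, -0.18 and -0.17 at 3 h, and 0.39, 0.089, -0.23 and 0.18 at 7 h, and at -0.14, -0.10 and -0.29 at 23 h, low on each 23 h array.

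Cofilin, Cfl1, which severs filaments, stood at 0.083, 0.58, -0.18 and -0.075 in the treated cells, 0.043, 0.12, -0.13 and -0.035 at 3 h, and 0.10, 0.20, 0.09 and 0.075 at 7 h. It stood at 0.20, 0.11, 0.058 and -0.41 at 12 h, and -0.003, -0.032 and -0.029 at 23 h. All 4 arrays at 7 h were above 0, by 0.12 ± 0.058 on average (SD, n = 4), and all 3 at 23 h were below it by at most 0.032. Capzb, the beta subunit of capping protein, ran from -0.41 to 0.53 over its arrays, with -0.32, -0.17, 0.10 and -0.16 at 12 h, and -0.13, 0.25 and -0.29 at 23 h, and took both signs in every group.

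Of the Arp2/3 complex 6 genes were measured, Actr3, Arpc1a, Arpc2, Arpc4, Arpc5 and Arpc5l. Their median was 0.021 in treated cells, -0.023 at 3 h, -0.0036 at 7 h, 0.058 at 12 h and 0.045 at 23 h. Arpc5 was below 0 on all 4 arrays at 3 h, with -0.23, -0.28, -0.11 and -0.047 at 3 h (-0.17 ± 0.109, SD, n = 4, adjusted p = 0.433), and Arpc1a was the complex's higher member there with a mean of 0.14 ± 0.108 (SD, n = 4, adjusted p = 0.435). Actr3, the Arp3 subunit, stood at 0.21, 0.049, 0.74 and 0.19 in the treated cells, 0.35, 0.018, 0.17 and -0.60 at 3 h, and -0.22, -0.48, 0.27 and -0.12 at 7 h, and at 0.50, 0.057, 0.044 and 0.38 at 12 h, and -0.12, 0.17 and 0.23 at 23 h. Its 2 probes did not agree. At 12 h one probe stood at -0.069, 0.057, 0.044 and -0.23, and the other had values on replicates 1 and 4 alone, 1.07 and 0.999. Arpc2 stood at -0.17, 0.18, -0.21 and -0.13 in the treated cells, and -0.037, -0.018, -0.11 and -0.14 at 3 h, and at 0.17, -0.047, -0.008 and 0.13 at 7 h, 0.36, 0.20, -0.005 and -0.35 at 12 h, and -0.064, 0.13 and -0.19 at 23 h, low on all 4 arrays at 3 h by 0.14 or less. Arpc5l stood at 0.94, -0.067 and -0.049 at 23 h, a fitted value of 0.31 (SE 0.13, n = 3, adjusted p = 0.9997) that was -0.034 without replicate 1. A single probe of its 4 carried it: that probe averaged 1.15 ± 2.38 (SD, n = 3) and the other 3 averaged 0.047, -0.055 and -0.039.

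The fitted values of the 3 alpha-actinins measured ran from -0.31 to -0.10 at 3 h and from 0.066 to 0.14 at 12 h, where 1 of the 3 was below 0 with Cy3 signs turned, and lay on both sides of 0 in treated cells, at 7 h and at 23 h. Actn4, the non-muscle alpha-actinin measured here, stood at 0.028, -0.051, -0.029 and -0.27 in the treated cells, -0.24, -0.23, -0.038 and 0.006 at 3 h, and 0.053, -0.006, 0.021 and -0.25 at 7 h, and at 0.26, 0.14, 0.018 and -0.044 at 12 h, and -0.25, 0.31 and -0.023 at 23 h. Actn2, the alpha-actinin of heart and skeletal muscle, stood at 0.77, 0.59, 1.26 and 4.48 in the treated cells, and -0.56, -0.37, -0.24 and -0.049 at 3 h, above 0 on all treated arrays and below 0 on all 3 h arrays. The treated value of 1.78 ± 1.82 (SD, n = 4, adjusted p = 0.793) rested largely on replicate 4, and was 0.97 without it. Actn2 had 1 probe. The 3 h value was -0.31 ± 0.213 (SD, n = 4, adjusted p = 0.425). Its later values were 0.037, 0.56, 0.15 and -0.10 at 7 h, 0.072, 0.10, 0.20 and 0.17 at 12 h, and -0.19, -0.28 and 0.17 at 23 h, with all 12 h arrays above 0. Actn3, the form of fast muscle fibres, stood at 0.93, -0.76, 0.59 and 0.15 in the treated cells, -0.27, -0.25, -0.022 and 0.12 at 3 h, and -0.20, -0.23, 0.019 and -0.17 at 7 h, and at 0.052, 0.094, 0.057 and 0.059 at 12 h, and -0.017, 0.024 and 0.043 at 23 h. Its 7 h value was -0.14 ± 0.112 (SD, n = 4, adjusted p = 0.659), low on 3 of 4 arrays.

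Of the tropomyosins, Tpm3 and Tpm4 were counted as non-muscle forms, although Tpm3 also has a muscle form. Tpm3 stood at -0.17, -0.20, -0.12 and -0.31 in the treated cells, 0.044, 0.10, 0.017 and -0.028 at 3 h, and -0.19, -0.13, -0.066 and 0.19 at 7 h, its probe average below 0 on all treated arrays although each of its 2 probes was above 0 on 1 of them, and at -0.11, -0.13, -0.04 and 0.12 at 12 h, and 0.085, -0.093 and 0.011 at 23 h. Tpm4 stood at 0.21, 0.29, 0.18 and -0.086 in the treated cells, 0.019, -0.057, -0.095 and -0.14 at 3 h, and 0.17, 0.036, -0.72 and 0.15 at 7 h, and at -0.079, -0.13, 0.051 and -0.10 at 12 h, and 0.19, -0.083 and 0.04 at 23 h, with 7 h replicate 3 far below the other arrays. Tpm1 and Tpm2, which muscle and other cells make in different forms, stood at 0.20, 0.007, -0.037 and 0.071 at 12 h and at 0.16, 0.12, -0.033 and -0.082 at 12 h. Over all 19 arrays Tpm1 ran from -0.27 to 0.20 and Tpm2 from -0.62 to 0.28. The median of the 4 tropomyosins was -0.16 in treated cells, -0.018 at 3 h, -0.044 at 7 h, 0.00073 at 12 h and 0.029 at 23 h.

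Non-muscle myosin II was represented by the heavy chains Myh9, Myh10 and Myh14 and the light chains Myl6, Myl12a and Myl12b. Myh9 stood at 0.17, 0.59, -0.17 and 0.17 in the treated cells, and -0.033, -0.10, -0.14 and -0.022 at 3 h, low by 0.14 or less on all 4 arrays at 3 h, and at 0.034, -0.14, -0.30 and 0.24 at 7 h, -0.064, 0.11, -0.22 and -0.47 at 12 h, and 0.38, -0.20 and -0.11 at 23 h. Myl6 stood at -0.17, 0.11, -0.25 and 0.12 in the treated cells, and -0.028, -0.15, -0.19 and -0.14 at 3 h, also below 0 on all 4 at 3 h as an average of 2 probes, 1 of which was above 0 on 2 of them, and at -0.026, -0.20, -0.27 and 0.12 at 7 h, -0.0025, 0.13, 0.087 and -0.46 at 12 h, and 0.21, -0.13 and 0.0005 at 23 h. Myl12a, averaged over 3 probes, was above 0 on all 4 arrays at 3 h, with a mean of 0.16 ± 0.144 (SD, n = 4, adjusted p = 0.462). Myh11, the smooth muscle heavy chain, stood at -0.81, -0.45, 0.058 and -0.17 in the treated cells, -0.023, -0.10, -0.28 and 0.76 at 3 h, and 0.29, 0.39, -0.32 and 0.60 at 7 h, and at 0.39, 0.32, -0.31 and -0.059 at 12 h, and 0.004, -0.55 and -0.23 at 23 h. Its treated value was -0.34 ± 0.373 (SD, n = 4, adjusted p = 0.793), with replicate 3 above 0.

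No sarcomeric myosin passed the test. Myh8, the perinatal heavy chain, stood at -0.42, -0.22, -0.46 and -0.23 at 12 h, below 0 on all 4 arrays (-0.33 ± 0.123, SD, n = 4, adjusted p = 0.769). Myh3, the embryonic heavy chain, stood at 0.071, 0.42, 0.33 and -0.023 at 3 h and at -0.33, -0.30, -0.27 and 0.088 at 12 h, mostly high at the first time and low at the second. Its values were 0.20 ± 0.211 at 3 h (SD, n = 4, adjusted p = 0.462) and -0.20 ± 0.196 at 12 h (SD, n = 4, adjusted p = 0.784). Myl7, an atrial light chain, was above 0 on all 4 arrays at 3 h (0.21 ± 0.0825, SD, n = 4, adjusted p = 0.456). Myl1, a light chain of fast fibres, stood at 0.475, -2.34, 0.81 and 0.019 in the treated cells. It stood at -0.55, -0.29, 0.082 and -0.40 at 3 h, and -0.036, -0.45, -0.62 and -0.32 at 7 h. Its 7 h value of -0.36 ± 0.248 (SD, n = 4, adjusted p = 0.659) came from 1 of 2 probes: the probes averaged -0.90 and 0.18. The 9 myosin II heavy chains had medians of -0.027 in treated cells, 0.048 at 3 h, -0.052 at 7 h, -0.050 at 12 h and -0.028 at 23 h, and 0 were called.

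The other unconventional myosins held no called gene. Myo1g, a class I myosin of lymphocytes, stood at -0.22, 0.15, -0.23 and 0.23 in the treated cells, 0.063, 0.19, -0.15 and -0.24 at 3 h, and -0.009, -0.13, -0.084 and 0.094 at 7 h, and at -0.35, -0.016, -0.11 and 0.011 at 12 h, and -0.15, -0.04 and 0.17 at 23 h, around 0 where Myo1f was low. Myo9b, a class IX myosin, stood at 0.11, -0.63, -0.25 and -1.35 in the treated cells, and 0.062, 0.45, -0.023 and 0.13 at 3 h, and at -0.12, 0.075, -0.59 and 0.15 at 7 h, -0.13, 0.12, -0.17 and 0.043 at 12 h, and -0.33, 0.69 and -0.67 at 23 h. Its 23 h arrays again set replicate 3 above and replicates 1 and 4 below. Myo5b, which moves recycling endosomes, stood at -0.082, -0.67, -0.85 and -0.10 at 7 h, below 0 on all 4 arrays (-0.42 ± 0.390, SD, n = 4, adjusted p = 0.629). Myo10, the myosin of filopodia tips, stood at 0.29, 0.10, 0.31 and 0.29 at 7 h, above 0 on all 4 (0.25 ± 0.0977, SD, n = 4, adjusted p = 0.659). At 12 h 0 of the 10 unconventional myosins passed an unadjusted p under 0.05, against 6.25% of features. At 7 h Myo5b passed it lower and Myo10 higher, against 7.04% of features. Myo1f passed it lower in treated cells, against 6.21%.

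Coronin-1A, Coro1a, which works with Arp2/3 at the leading edge of leukocytes, stood at -0.28, -0.19, 0.33 and 0.22 in the treated cells, and -0.015, 0.003, -0.075 and -0.061 at 3 h, and at 0.20, 0.051, -0.11 and 0.081 at 7 h, -0.026, 0.029, -0.12 and -0.11 at 12 h, and -0.33, 0.031 and -0.082 at 23 h. The 3 coronins had medians of 0.0059 in treated cells, -0.024 at 3 h, 0.061 at 7 h, -0.043 at 12 h and -0.087 at 23 h. None passed an unadjusted p under 0.05 in any of these comparisons.

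Genes of the actin pathway outside the symbol rule were not called either. Of 88 listed genes 64 were measured, among them upstream GTPases, nucleation factors, formins and membrane linkers, and 0 were called in any comparison. At an unadjusted p under 0.05, 3 of 64 passed in treated cells (6.21% of all features), 7 at 3 h (10.8%), 4 at 7 h (7.04%), 4 at 12 h (6.25%) and 2 at 23 h (3.35%), near the shares of all features. At 23 h against 3 h, 6 of 64 passed it lower (3.02% of all features) and 0 higher (2.47%). The 23 h values were below 0 for 48 of 64 (75%, against 49.5% of all features), and for 38 without both arrays in doubt. The following genes are named after their values were seen. At 3 h the severing protein Gsn was at -0.41 (SE 0.12, adjusted p = 0.425) and the kinase Rock1 at 0.33 (SE 0.11, adjusted p = 0.425). At 7 h the GTPase Rac1 was at 0.21 (SE 0.053, adjusted p = 0.570), and at 23 h the GTPase Rhoa was at -0.28 (SE 0.11, adjusted p = 0.9997). The adhesion protein Tln1 was at -0.54 (SE 0.13, adjusted p = 0.792) in treated cells and at -0.16 (SE 0.070, adjusted p = 0.9997) at 23 h.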

How the data were processed

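Labelled RNA was hybridised to 2-colour arrays, and the authors deposited 1 log ratio per spot for each of 19 arrays, with no spot intensities used here. The deposited values were treated as log2 ratios of own RNA over reference. No base, numerator or normalization of these ratios is stated in the labels or the file. The labels' protocols speak of organs and of a pooled animal reference, unlike a cell line, so each reference was taken from the sample's own channel labels. Repeated extreme values beyond 10 were set to missing and each array was centred on its median. Values were present for 19658 to 19841 of 20205 probes per treated array and for 20088 to 20158 per time-course array. Precision is limited by how many arrays there were. The platform table gave a single symbol for 13891 probes, several for 5 and no symbol for 6309. A RefSeq gene matched 13855. Probes of a gene were averaged, which concerned 18 members.

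The treated arrays and the 15 time-course arrays were fitted separately with limma 3.58.1 in R 4.3.3, with the dye of the own RNA as a term and Benjamini-Hochberg adjustment over all features. A feature was tested with values on at least 3 arrays of a group of 4, or 2 at 23 h. The test for any difference among the times used the 15695 features with values on all 15 arrays. The script was tested on simulated data. Values on every array are given for members called in any comparison, for the 2 non-muscle and 2 muscle members with the smallest p in each of the 5 comparisons with a reference, and for fixed members of each role. The members, the lists and the alternatives were chosen with earlier results of these data known.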

Additional observations from a re-analysis of the deposited data

Results flagged for a closer look

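Dixon's test at its 95% critical value was applied to 128 pairs of a member and a group of 4 arrays over 32 members, and 10 pairs held an array far from the others, where chance flags about 1 in 20. In treated cells Myo5b stood at 3.24 on replicate 4, against -0.60 to 0.007 on the others, and Myh8 at -0.56 on replicate 1, against 0.42 to 0.52. At 3 h Myh8 stood at 0.24 on replicate 2, against -0.095 to -0.064, and Myo1f at -0.26 on replicate 3, against -0.48 to -0.46. At 7 h Lcp1 stood at 0.28 on replicate 4, the array in doubt, against -0.23 to -0.15. At 7 h Myo10 stood at 0.10 on replicate 2, against 0.29 to 0.31, and Tpm4 at -0.72 on replicate 3, against 0.036 to 0.17. At 12 h Actg1 stood at 0.30 on replicate 4, against -0.058 to -0.029, Myh3 at 0.088 on replicate 4, against -0.33 to -0.27, and Actn3 at 0.094 on replicate 2, against 0.052 to 0.059.

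For 5 of the 58 members (8.62%), and for 7.24% of 15695 features, every array of one time lay on one side of 0 and every array of another time on the opposite side. Actn2, the muscle alpha-actinin, averaged 0.14 at 12 h and -0.31 at 3 h, a difference of 0.44. Actr5, a nuclear actin-related protein, averaged 0.27 at 12 h and -0.26 at 3 h, a difference of 0.53. Myo5b averaged 0.10 at 23 h and -0.42 at 7 h, a difference of 0.53. Cfl1 averaged -0.021 at 23 h and 0.12 at 7 h, a difference of -0.14. Myh1, a heavy chain of fast fibres, averaged -0.088 at 23 h and 0.096 at 12 h, a difference of -0.18. These single differences were not tested, and limma's test for any difference among the 4 times gave adjusted p = 0.756 for Actn2, 0.762 for Actr5, 0.756 for Myo5b, 0.890 for Cfl1 and 0.788 for Myh1.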

How the results depend on the processing

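The number of members called moved under these settings, given with the share of all features called. Without both arrays in doubt it was 1 at 12 h (0.249%) and 1 at 23 h (0.368%), S100a6 each time, and 5 in the mean of the 4 times (2.21%). With array weights and without both it was 1 at 7 h (Myo1f, 0.608%), 1 at 12 h (S100a6, 0.771%) and 5 in the mean (1.8%). With the own RNA in Cy5 only it was 1 in the mean (S100a6, 0.39%), and with Cy3 signs turned and both arrays left out 1 in the mean (Myl2, 0.244%). Leaving out 1 array at a time gave 0 to 1 in the mean of the 4 times, with Myo1f called without 7 h replicate 4 (0.43%) and S100a6 without 23 h replicate 3 (0.0939%), and 0 elsewhere. With all 19 arrays in 1 fit, which lends the treated arrays the narrower spread of the others, 1 member was called in treated cells (Actn2, adjusted p = 0.0203) among 758 features (4.76%). The count was 0 in the other 169 combinations of comparison and setting. The median difference of non-muscle minus muscle genes was 0.18 in treated cells with Cy3 signs turned and -0.035 at 3 h with 1 probe a gene. Leaving out 1 array gave -0.18 to 0.008 in treated cells, 0.011 to 0.044 at 3 h, 0.0044 to 0.042 at 7 h, -0.11 to -0.036 at 12 h and -0.096 to 0.041 at 23 h. The cause of these shifts was not tested.

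Of the values of named members, 566 kept their direction and side of the threshold, 17 kept their direction and passed the threshold, all in calls given above, and 22 reversed. With Cy3 signs turned, Lcp1 was 0.12 and Actn2 -1.09 in treated cells, Myo5b 0.051, Myo10 -0.052 and Myl1 0.11 at 7 h, Myh8 0.010 at 12 h and Myh11 0.29 at 23 h. With that and both arrays left out, Myo5b was 0.062 and Myl1 0.11 at 7 h, Myh8 0.010 at 12 h, and Myh11 0.12 and S100a6 0.015 at 23 h. In the mean of the 4 times S100a6 was then 0.058, Lcp1 0.052, Tmsb4x 0.049 and Myo1f 0.018. With 1 probe a gene Myl1 was 0.18 at 7 h and 0.048 in the mean. At 23 h Myh11 was 0.0040 with Cy5 only and Arpc5l -0.058 with Cy3 only, and leaving out 1 array there gave -0.034 to 0.45 for Arpc5l and -0.20 to 0.027 for Coro1a, both turned without replicate 1. With the replicate block 0 members were called in every time-course comparison. Deviations of same-numbered arrays correlated at 0.027 on average (-0.11 to 0.19, 21 pairs), against 0.044 for other numbers of the same dye. Both arrays in doubt are included in these correlations, so they cannot show that the arrays were unpaired.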
